A study of Manis javanica with 3 samples.

Results

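The mitochondrial genome of the Malayan pangolin (Manis javanica) contributed 10 of the 24220 entries in the deposited expression tables, and these 10 entries are described here. They were chosen by position alone, as the entries placed on the mitochondrial sequence. Together they spanned all 13 protein genes of that genome. Of the 10 entries, 8 held 1 gene each, 1 spanned ATP8, ATP6 and COX3, and 1 spanned ND4L and ND4. Ribosomal and transfer RNAs of the mitochondrion were not analysed here. The tissues were liver, salivary glands and small intestine of 1 adult female, an animal from the wild that died during rescue. Each tissue gave 1 library, so the values below have no replicate check and no test, and they describe these libraries. RNA was selected with poly-T beads, and its strand was not kept. In a piece of tissue, fewer cells or mitochondria and less RNA in each of them cannot be told apart.

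The 13 proteins form the core of the respiratory chain, which moves electrons from food to oxygen and pumps protons to drive ATP synthesis. The ND proteins belong to complex I (NADH dehydrogenase), CYTB to complex III (the cytochrome bc1 complex), the COX proteins to complex IV (cytochrome c oxidase) and ATP6 and ATP8 to complex V (ATP synthase), while complex II is encoded wholly in the nucleus. In mammals the genes of a strand are read as a long precursor that is cut into separate RNAs, mostly at the transfer RNAs between the genes. ND6 is the protein gene that lies on the other strand.

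Counts over all genes ranged from 8318686 in salivary glands to 14568778 in liver. The 10 most abundant genes outside the mitochondrion took 42.7% of the counts in small intestine, 22.9% in salivary glands and 15.8% in liver. The hepatocyte marker list had a median FPKM (fragments on a gene scaled for its transcript length and for the mapped fragments of the library) of 586 in liver and of 15.5 and 0.387 in the small intestine and salivary gland libraries. In the library labelled small intestine, 7 enterocyte markers summed to an FPKM of 49.5, against 52.7 in salivary glands and 154 in liver, where SI alone had 114. FABP2 was at 0 in all 3 libraries, and the main VIL1 entry was alike in them at 24.0, 25.7 and 21.2 in small intestine, salivary glands and liver. In the library labelled small intestine 6 gastric markers summed to 20528, among them ATP4A, a subunit of the acid pump of parietal cells, at 1073, against sums of 16.0 in salivary glands and 1.63 in liver. The muscle markers summed to 1439 in small intestine, 91.8 in salivary glands and 19.5 in liver. The salivary marker list rested on 3 symbols and summed to 122 in salivary glands, 24.8 in liver and 2.95 in small intestine, of which AQP5, a water channel of gland cells, had 94.3, 24.7 and 2.29. The part of these markers in the mitochondrial values was not tested, and the name small intestine below is that of the label.

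The mitochondrial entries were among the most abundant in each tissue. The liver library held the most, by a margin over small intestine that depended on the most abundant other genes. They took 208712 counts in small intestine, which was 2.05% of the library (95% Wilson interval 2.05 to 2.06%). In the salivary gland library they took 110023 counts, or 1.32% (1.31 to 1.33%). In the liver library they took 446373 counts, or 3.06% (3.06 to 3.07%). These intervals cover counting error only. With the 10 most abundant other genes left out of the total, the shares of the counts were 3.59% in small intestine, 1.72% in salivary glands and 3.64% in liver. The small intestine and liver libraries were then nearly equal. In FPKM, 4 entries ranked among the 20 highest genes in every library. Among the 100 highest were 9 entries in small intestine, 9 in liver and 4 in salivary glands. The summed FPKM was 43724, 25768 and 66803 in small intestine, salivary glands and liver, respectively, so that the liver library stood 1.53-fold above the small intestine and 2.59-fold above the salivary glands, and the small intestine 1.70-fold above the salivary glands. These 3 comparisons share libraries and are not independent.

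**Figure D1:**
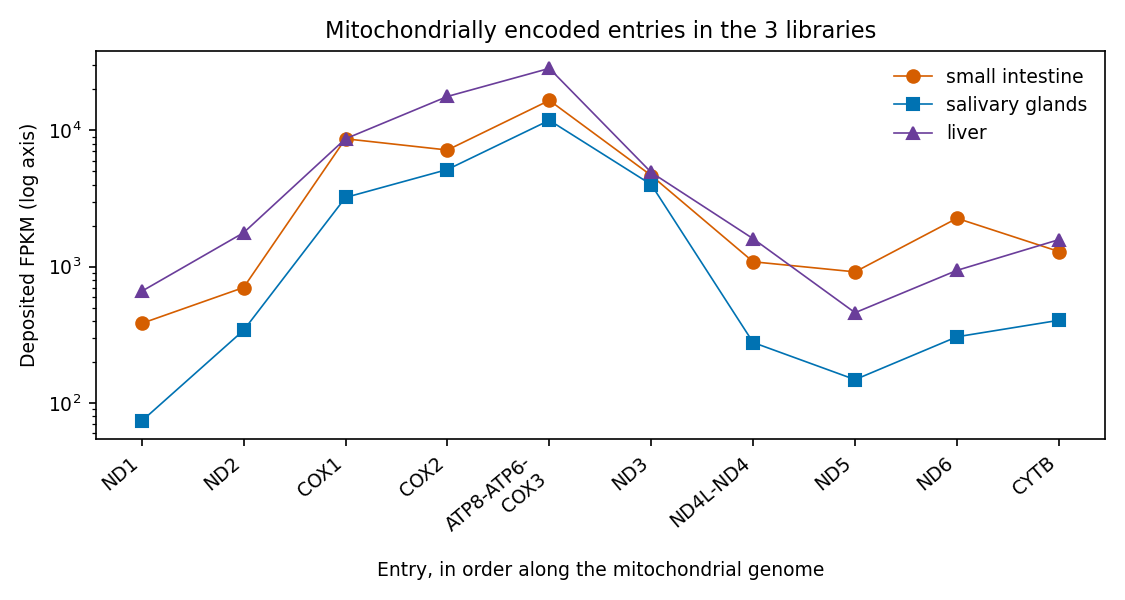
Deposited FPKM (log axis) of the 10 mitochondrial entries, ordered along the genome, in the 3 libraries, with 1 point per entry and library and lines that only guide the eye. The salivary gland library is the lowest for every entry by FPKM, and the small intestine library lies above the liver library for ND5 and ND6. With counts scaled by library size, the salivary gland library lies slightly above the small intestine library for ND3, COX2 and the ATP8, ATP6 and COX3 entry. For ND3 it then also lies above the liver library, as it does with the 10 most abundant other genes left out of the total.

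The entries spanned a wide range within each tissue. In FPKM the highest was the entry of ATP8, ATP6 and COX3 in all libraries. It stood 43.3-fold above ND1, the lowest, in small intestine and 161-fold above ND1 in salivary glands. In the liver library it stood 62.1-fold above ND5, the lowest there. The deposited length of this entry, 784 bases, was shorter than its 1625-base locus, and that of the ND4L and ND4 entry was 1378 bases for a locus of 1668. These deposited lengths are those of COX3 and of ND4 alone in the RefSeq table, so the FPKM may stand for those genes rather than for the whole loci. Which part of these loci the fragments were counted on is not given in the sources used here. A count per kilobase of length also gave different FPKM in different entries. Set against ND5 in the same library, that yield was 2.42 to 2.98 for the entry of ATP8, ATP6 and COX3, 2.53 to 2.93 for the entry of ND4L and ND4, and 2.73 to 2.92 for the short ND3. It was 1.02 to 1.65 for the other entries. Levels are therefore also given as counts per kilobase of the locus. On that scale COX1 was highest in small intestine and COX2 in the salivary gland and liver libraries, with the entry of ATP8, ATP6 and COX3 after both in each.

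The complex I entries ranged widely, with ND1 or ND5 the lowest of the 10 entries by FPKM in each library and ND3 the highest of the ND entries. ND1 (gene27152, bases 2743 to 3698 of the mitochondrial genome, plus strand) had an FPKM of 383 in small intestine, 73.5 in salivary glands and 658 in liver, from 2318, 512 and 6338 counts. ND1 thus differed 8.95-fold between the liver and salivary gland libraries, the widest gap of any entry and pair. ND2 (gene27153, 3908 to 4946, plus strand), another membrane subunit of the proton pump, stood at 702, 341 and 1772 in the same order. It was 2.52-fold higher in the liver than in small intestine, the widest excess of the liver over that library.

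ND3 (gene27159, 9460 to 9805, plus strand), the shortest entry at 346 bases, had an FPKM of 4660 in small intestine, 3999 in salivary glands and 4912 in liver. This was the most even of the 10 entries, with its liver value 1.23-fold above its salivary gland value. The entry of ND4L and ND4 (gene27160, 9874 to 11541, plus strand) had 1085, 277 and 1601 in the same order, and was 5.78-fold higher in the liver than in salivary glands.

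ND5 and ND6 followed another order of tissues. ND5 (gene27162, 11741 to 13561, plus strand) had an FPKM of 915 in small intestine, 148 in salivary glands and 459 in liver, from 13601, 2465 and 10019 counts. ND6 (gene27163, 13545 to 14069, minus strand) had 2262, 305 and 938, from 6093, 886 and 4230 counts. Both were higher in the small intestine than in liver, 1.99-fold for ND5 and 2.41-fold for ND6, while by FPKM the other entries were higher in liver or, for COX1 and ND3, nearly equal, and COX1, ND3 and CYTB changed direction with the scaling. The excess over the salivary gland library was 6.17-fold for ND5 and 7.40-fold for ND6. The loci of ND5 and ND6 share 17 bases on opposite strands. Since strand was not kept, reads from ND6 and from the precursor of the opposite strand cannot be told apart over the whole ND6 locus. All values, folds, shares and ratios of ND6 given here may hold both.

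CYTB (gene27164, 14142 to 15276, plus strand), the subunit of complex III from this genome, had an FPKM of 1290 in small intestine, 403 in salivary glands and 1576 in liver. The liver and small intestine values lay within 1.22-fold of each other, and both stood over 3-fold above the salivary gland value, 3.91-fold for the liver and 3.20-fold for the small intestine.

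Complex IV entries held most of the mitochondrial reads. COX1 (gene27154, 5326 to 6876, plus strand), the catalytic subunit, had an FPKM of 8668 in small intestine, 3215 in salivary glands and 8669 in liver, from 99780, 40782 and 157871 counts. COX2 (gene27155, 7015 to 7698, plus strand), which takes electrons from cytochrome c, had 7171, 5157 and 17728, from 28731, 23623 and 104686 counts. COX1 was thus at the same FPKM in the liver and small intestine libraries, where COX2 was 2.47-fold higher in liver. Against the salivary glands the small intestine library was 2.70-fold higher in COX1 and 1.39-fold higher in COX2.

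The entry of ATP8, ATP6 and COX3 (gene27156, 7766 to 9390, plus strand), 2 subunits of complex V and 1 of complex IV, had an FPKM of 16590, 11848 and 28490 in small intestine, salivary glands and liver, respectively. The counts were 35618, 30153 and 110794. The liver value was 1.72-fold above the small intestine and 2.40-fold above the salivary glands.

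Over the 10 entries, the liver library was at least 2-fold above the salivary gland library in 9, with ND3 as the exception, against 25.9% of the 20404 genes with reads in this pair. The small intestine library was at least 2-fold above the salivary gland library in 7 entries, against 22.5% of 20140 genes, and COX2, ND3 and the entry of ATP8, ATP6 and COX3 fell short of that fold. Liver against small intestine divided the entries. ND2 and COX2 were at least 2-fold higher in liver, against 23.8% of 20662 genes, which is near the background. Neither reached 2-fold with the total without the 10 most abundant other genes (log2 of 0.82 and 0.79), while the entry of ATP8, ATP6 and COX3 passed it by library size (1.12). ND6 was at least 2-fold lower, against 25.0%, and ND5, at 1.99-fold, fell just short. No entry was at least 2-fold lower in the liver or small intestine than in salivary glands, where the background was 21.0% and 15.4%. The median log2 fold of the entries was 1.71 for liver against salivary glands, 1.55 for small intestine against salivary glands and 0.43 for liver against small intestine. Over all genes with at least 10 counts in both libraries it was 0.13, 0.06 and 0.08. The counting error of a log2 fold was at most 0.070 (SE).

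The direction of these folds was also computed with counts scaled by library size, by TMM (trimmed mean of M-values), by the upper quartile, and by the total without the 10 most abundant other genes. For liver against salivary glands 9 of the 10 entries kept their direction in all 5 scalings, and ND3 was between -0.18 and 0.30 (log2). For small intestine against salivary glands 7 kept it, and COX2, ND3 and the entry of ATP8, ATP6 and COX3 were also 0.01, 0.26 and 0.05 (log2) lower in small intestine by library size. For liver against small intestine 7 kept it. ND5 was lower in liver by 0.96 to 1.52 (log2) and ND6 by 1.05 to 1.60, while COX1 lay between -0.41 and 0.14, ND3 between -0.35 and 0.21 and CYTB between -0.17 and 0.38. With counts scaled by library size, the median of all genes was 0.28 for liver against small intestine, -0.21 for liver against salivary glands and -0.48 for small intestine against salivary glands, and it was -0.26, -0.34 and -0.07 with the 10 most abundant genes left out.

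**Figure D2:**
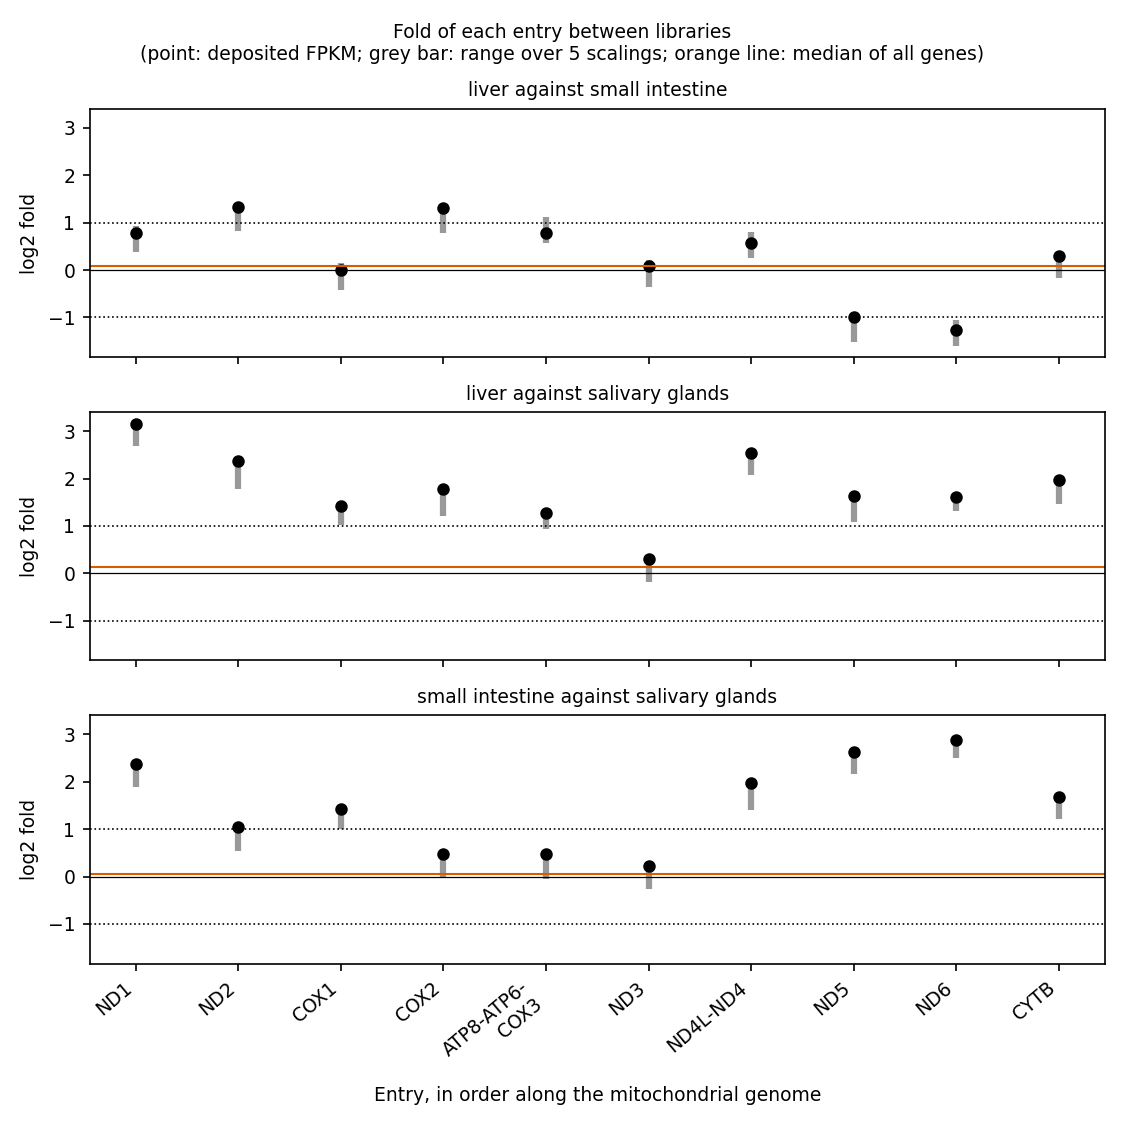
Log2 fold of each entry between libraries, 1 panel per pair, as points for deposited FPKM and grey bars for the range over 5 scalings, with dotted lines at 2-fold and an orange line at the median of all genes with at least 10 counts in both libraries. ND5 and ND6 lie below 0 in the panel of liver against small intestine, and ND3 lies near 0 in all panels.

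The makeup of the mitochondrial reads, which does not depend on how libraries are scaled, differed between tissues. COX1 took 47.8% of the counts on the 10 entries in small intestine (95% Wilson interval 47.6 to 48.02%), 37.1% in salivary glands (36.8 to 37.4%) and 35.4% in liver (35.2 to 35.5%). COX2 took 13.8%, 21.5% and 23.5% in the same order, and the entry of ATP8, ATP6 and COX3 took 17.1%, 27.4% and 24.8%. These 3 entries together held 78.6% of the mitochondrial counts in small intestine, 85.9% in salivary glands and 83.6% in liver. ND5 took 6.52% in small intestine (6.41 to 6.62%), 2.24% in salivary glands (2.15 to 2.33%) and 2.24% in liver (2.20 to 2.29%). ND6 took 2.92% (2.85 to 2.99%), 0.805% (0.754 to 0.860%) and 0.948% (0.920 to 0.976%). The small intestine library thus gave a larger share to COX1, ND5 and ND6, beyond counting error, than either other library. The same held for CYTB, with values given below. ND1 had its smallest share, 0.465% (0.427 to 0.507%), in salivary glands, where it took 1.11% in the small intestine and 1.42% in liver. ND3 had its largest share there, 4.03% (3.91 to 4.15%), against 2.16% and 1.67%. ND2 took 2.20%, 2.36% and 3.83% in small intestine, salivary glands and liver, respectively, and the entry of ND4L and ND4 1.999%, 1.18% and 2.35%. CYTB took 4.45% (4.36 to 4.54%), 2.98% (2.88 to 3.08%) and 3.89% (3.84 to 3.95%) in the same order.

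**Figure D3:**
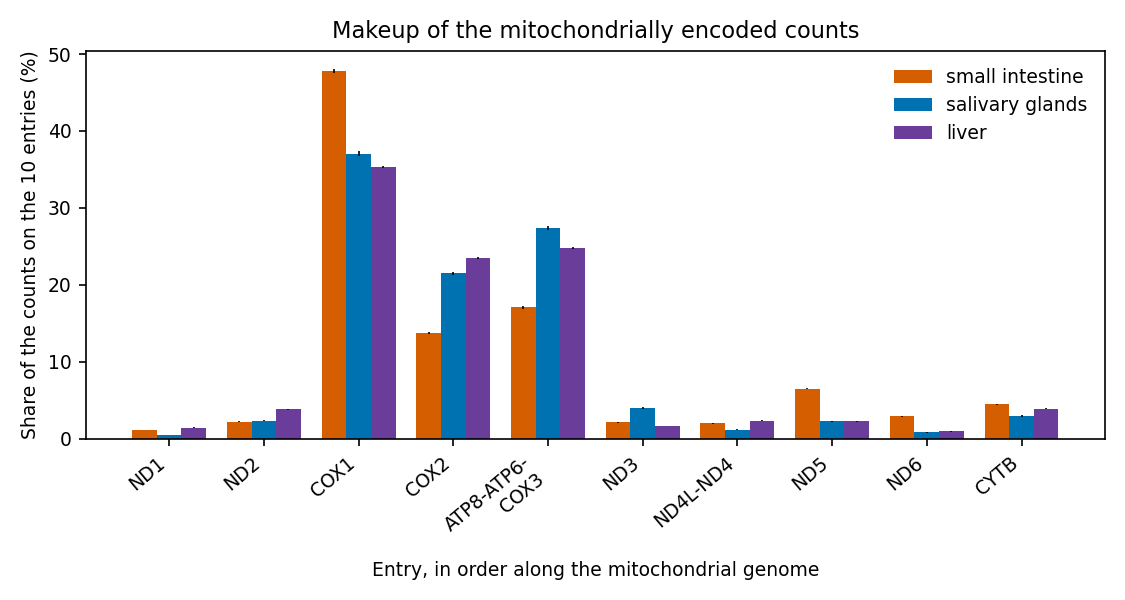
Share of the counts on the 10 mitochondrial entries that each entry took, in percent, in the 3 libraries, with bars from 0 and 95% Wilson intervals. COX1 takes 47.8% in small intestine and 37.1% and 35.4% in the salivary gland and liver libraries.

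Averaged over entries, complex IV stood above complex I in every tissue, by a factor that depended on how length was treated. Single entries could cross, as by FPKM in salivary glands, where ND3 at 3999 stood above COX1 at 3215. The mean FPKM of COX1 and COX2 was 4.75 times that of the 6 ND entries in small intestine, 4.88 times in salivary glands and 7.66 times in liver. By counts per kilobase of the locus the same ratios were 7.69, 9.28 and 11.8. Without ND3, the 1 entry under 400 bases, the FPKM ratios were 7.41, 18.3 and 12.2, so the order of the salivary gland and liver libraries turned on that entry. CYTB stood at 0.773, 0.471 and 0.915 times the mean FPKM of the ND entries. Without ND3 all of these ratios lay above 1, at 1.21, 1.76 and 1.45, and by counts per kilobase of the locus they were 1.18, 0.881 and 1.42.

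Ratios between neighbours along the genome are free of the scaling between libraries as well. Of the 9 pairs of neighbours, 7 differed in the same direction in all 3 libraries by FPKM, and 4 did so by at least 2-fold in all 3. The step from ND2 to COX1, which lie 379 bases apart, was 12.3-fold in small intestine, 9.44-fold in salivary glands and 4.89-fold in liver. By counts per kilobase of the locus it was 14.5-fold, 10.5-fold and 6.18-fold. The entry of ND4L and ND4 stood at 0.233, 0.0693 and 0.326 times the FPKM of ND3 in small intestine, salivary glands and liver, respectively, and at 0.192, 0.0607 and 0.291 times by counts per kilobase of the locus. These steps, up to COX1 and down after ND3, were the 2 pairs past 2-fold in all libraries on both scales. ND6 stood at 2.47, 2.06 and 2.05 times the FPKM of ND5, the FPKM ratio that varied least between libraries, and at 1.55, 1.25 and 1.46 times by counts per kilobase of the locus.

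Other neighbours changed order between tissues. COX2 stood at 0.827 times the FPKM of COX1 in small intestine, 1.60 times in salivary glands and 2.04 times in liver. CYTB stood at 0.570 times ND6 in small intestine, 1.32 times in salivary glands and 1.68 times in liver. Both pairs had the same order by counts per kilobase of the locus, with COX2 at 0.653, 1.31 and 1.504 times COX1 and CYTB at 0.705, 1.71 and 1.90 times ND6. The entry of ATP8, ATP6 and COX3 stood above COX2 by FPKM, by 2.31, 2.30 and 1.61 times, and below it by counts per kilobase of the locus, at 0.522, 0.537 and 0.445 times. ND5 stood below the entry of ND4L and ND4 by FPKM, at 0.843, 0.534 and 0.286 times, but by counts per kilobase of the locus it stood at 2.99, 1.74 and 0.876 times.

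**Figure D4:**
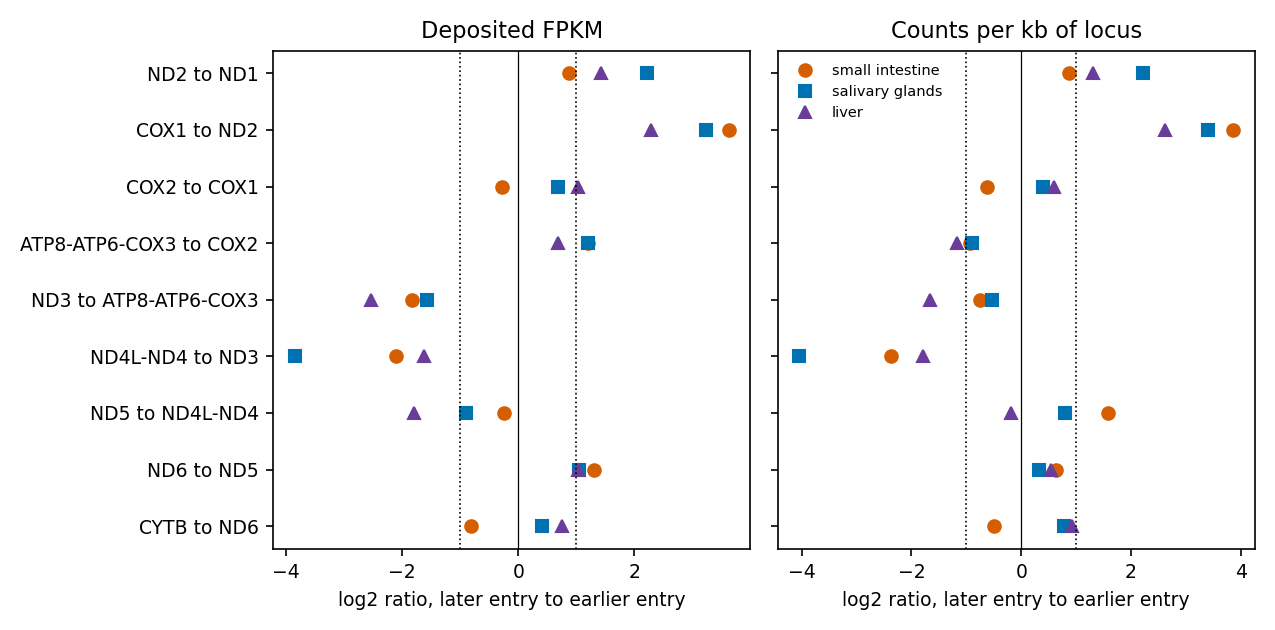
Log2 ratio of each entry to the one before it along the genome, by deposited FPKM (left) and by counts per kilobase of the locus (right), with 1 point per library and dotted lines at 2-fold. COX1 stands above ND2 and the ND4L and ND4 entry below ND3 in all libraries on both scales, while COX2 to COX1 and CYTB to ND6 lie on opposite sides of 0 in small intestine and the other libraries.

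The nuclear partners of these proteins differed less between the tissues. Of 92 entries for nuclear subunits of complexes I to V, which held 80 symbols, 86 had reads. Liver against salivary glands left 70 of the 86 within 2-fold, with 11 higher and 5 lower in liver (12.8% and 5.81%, against 25.9% and 21.0% of all genes). Small intestine against salivary glands left 77 within 2-fold, with 6 higher and 3 lower in small intestine (6.98% and 3.49%, against 22.5% and 15.4%). Liver against small intestine left 72, with 8 higher and 6 lower in liver (9.30% and 6.98%, against 23.8% and 25.0%). Their median log2 folds were 0.19, 0.22 and -0.06 in that order, against 1.71, 1.55 and 0.43 for the mitochondrial entries. These lists are a description, and the difference between the genomes was not tested. The shares over all genes take in genes with few reads and were not matched to the levels of the nuclear subunits.

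By complex, the 39 nuclear entries of complex I had a median FPKM of 47.6 in small intestine, 45.5 in salivary glands and 47.0 in liver. The mean of the mitochondrial ND entries was 1668, 857 and 1723, or 35.1, 18.9 and 36.7 times those medians. These ratios set a mean against a median and depend on the short ND3. Without ND3 the mean of the ND entries was 1069, 229 and 1086. The nuclear medians are over all entries, also those without reads, and some entries share a symbol. The 39, 11 and 16 entries of complexes I, III and IV held 36, 8 and 14 symbols. Among the nuclear subunits of complex I, NDUFB10 was the highest, at an FPKM of 213, 403 and 208, and NDUFA1, an accessory subunit, was higher in liver at 61.1 than in the small intestine at 12.2 and the salivary glands at 25.2. NDUFV3 was lowest in liver, at 50.8, 38.6 and 11.6. NDUFB5 was lowest in small intestine, at 24.6, 62.2 and 58.4. Of the 11 nuclear entries of complex III the median was 60.4, 67.5 and 76.2, and CYTB stood 21.3, 5.97 and 20.7 times above it. UQCRFS1, the Rieske iron-sulfur protein, had 68.3, 67.5 and 143. UQCRH, which helps hold cytochrome c1, was the highest of that list at 169, 163 and 210.

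The 16 nuclear entries of complex IV had a median FPKM of 141, 78.2 and 139, and the mean of COX1 and COX2 stood 56.2, 53.5 and 95.3 times above it in small intestine, salivary glands and liver, respectively. COX6C was the highest, at 466, 429 and 274, and COX7B was lowest in salivary glands at 137.6, 58.9 and 127.7. COX7B and its complex IV partners COX8A and COX5B are small subunits around the core of COX1, COX2 and COX3. COX8A had 336, 373 and 273, and COX5B 342, 198 and 246. Of complex V, ATPIF1, an inhibitor of the enzyme, was the highest at 410, 369 and 440. ATP5I, a subunit of the membrane part, was lowest in liver at 181, 156 and 75.0. Of complex II, SDHA, its flavoprotein subunit, was highest in liver at 53.0, 31.7 and 134.

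**Figure D5:**
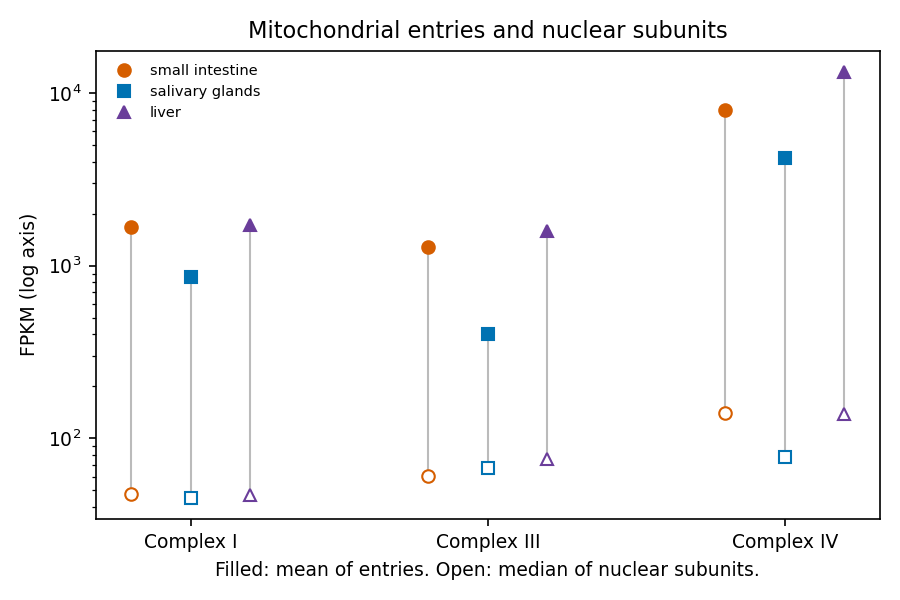
Mean FPKM of the mitochondrial entries (filled) and median FPKM of the nuclear subunits (open) of complexes I, III and IV in the 3 libraries, on a log axis. The nuclear medians of complex I lie between 45.5 and 47.6 while the mitochondrial means lie between 857 and 1723 (229 and 1086 without ND3).

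Nuclear genes that copy, transcribe or process mitochondrial nucleic acid formed 2 lists. In both, the median of the log2 folds of the genes was 0.68 for liver against small intestine. For liver against salivary glands it was 0.77 to 0.78. Of 18 entries for copying and transcription, 6 were at least 2-fold higher and 1 lower in liver than in small intestine, and 6 higher and 1 lower than in salivary glands. The higher ones are 33.3% and 33.3% of the list, against the backgrounds of 23.8% and 25.9% above, a small excess in a list of 18. The lower ones are 5.56% and 5.56%, against 25.0% and 21.0%. POLRMT, the mitochondrial RNA polymerase, had an FPKM of 7.12 in small intestine, 11.4 in salivary glands and 20.5 in liver. TFB2M, its initiation factor, had 10.6, 13.6 and 30.6. TEFM, its elongation factor, had 1.02, 0.999 and 7.496, from 11, 12 and 105 counts. TFAM, which packs the mitochondrial genome and helps start its transcription, had 1.39, 1.37 and 3.41, from 6, 7 and 20 counts. The coactivators PPARGC1A, at 6.98, 1.39 and 4.42, and PPARGC1B, at 4.95, 0.873 and 0.209, were both highest in small intestine.

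Of 31 entries for RNA processing and decay, 5 were at least 2-fold higher and 1 lower in liver than in small intestine. These are 16.1% and 3.23% of the list, both below the backgrounds of 23.8% and 25.0%. Against the salivary glands 12 were higher and 2 lower in liver, or 38.7% and 6.45% of the list, against 25.9% and 21.0% of all genes. Whether that excess holds in other scalings was not computed. Of the 49 entries of both lists together, 18 were higher in liver by FPKM, 12 with TMM and 11 with the upper quartile. The share over all genes was computed by FPKM only. TRMT10C, a subunit of mitochondrial RNase P, which cuts transfer RNAs from the precursor, had 6.73, 4.39 and 19.3 in small intestine, salivary glands and liver, respectively. PDE12, which removes poly(A) tails in mitochondria, had 4.72, 3.93 and 11.2. SLIRP, which stabilises mitochondrial mRNAs together with LRPPRC, had 52.4, 25.1 and 85.2. REXO2, an exonuclease for short RNA, was highest in salivary glands, at 87.3, 323 and 111. FASTK had 43.8, 81.4 and 54.4, and FASTKD1 had 3.62, 3.56 and 10.8 in a newly joined gene, from 14, 15 and 55 counts.

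Among the 239 genes outside the mitochondrion with an FPKM of at least 100 in every library, the 5 nearest in pattern to the summed entries were found from the distance between log2 FPKM values centred over the 3 libraries. They were ATP6V1G1, a subunit of the vacuolar proton pump, at 255, 156 and 340 and a distance of 0.19, CTSD, the lysosomal protease cathepsin D, at 0.24, MORF4L1 at 0.25, an entry annotated as CIRBP at 0.26, and GPX4, which reduces lipid peroxides, at 0.28. The NR product of the CIRBP entry is named putative RNA-binding protein 3, so the name of that entry is uncertain. A distance over 3 libraries is a description only.

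COX1 was also the annotation of 2 entries on nuclear scaffolds, of 1485 and 870 bases, against 1551 for the mitochondrial entry. Both had a count of 0 in all 3 libraries, which allows up to 0.295, 0.361 and 0.206 CPM (counts scaled to a common library size) in small intestine, salivary glands and liver, respectively, for 3 counts. How reads that fit several places were counted is not given in the sources used here, so these limits hold for the deposited counts only.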

How the data were processed

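RNA of 3 tissues of 1 animal was sequenced as 1 library per tissue. The authors removed low-quality reads, aligned the rest without strand with TopHat2 and joined new genes with Cufflinks. RSEM is named for the FPKM. The tool that made the counts and the genome build are not given in the sources used here. The count deposited by the authors is a whole number of fragments per gene. The FPKM deposited by the authors scales fragments by transcript length and mapped fragments, and for short or merged entries it is higher per count and kilobase. A score, also deposited, multiplies each count by a factor of its library and served only to check the counts of the 10 entries. The deposited annotation gave names. A table of RefSeq genes, of another assembly, served to tell which genes lie in each mitochondrial entry.

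FPKM + 0.1 was compared between libraries, and a difference was called at 2-fold, among genes with a read in either library. There is no test with 1 library per group. Intervals of shares are 95% Wilson intervals, and 3 counts were taken as the limit of a count of 0. TMM and upper quartile factors came from edgeR 4.0.16 in R 4.3.3, and the rest from Python 3.11.15, pandas 2.3.3, numpy 2.4.6, scipy 1.17.1 and matplotlib 3.10.9. The fold and call step was tested on simulated data. Entries and lists were chosen with earlier results of these data known. Nuclear lists were found by the symbol of the Swiss-Prot or KEGG entry and checked against the NR product, which renamed or added 15 entries and left out 4, a choice made after the data were opened. The genes eligible to be named were all 10 entries, of each list the 4 with the highest FPKM and up to 4 at least 2-fold from both other libraries in the same direction, the 5 nearest in pattern, and nuclear entries annotated as mitochondrially encoded. Alternatives were other scalings, lengths, pseudocounts, folds and count minimums.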

Additional observations from a re-analysis of the deposited data

How the results depend on the processing

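No paired analysis was possible because each tissue is 1 library, and none was left out for the same reason. The limits are those of 1 animal: the intervals hold counting error only, merged entries and short entries depend on the length used, and the label small intestine goes with gastric markers. For each value that moved, the cause was not tested unless the alternative itself leaves out genes or changes the fold.

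The summed log2 fold of the 10 entries kept its sign in every alternative run. For liver against small intestine, 0.61 with deposited FPKM, it was 0.48 with TMM, 0.44 with the upper quartile, 0.17 with the total without the 10 most abundant other genes, 0.72 by library size (an alternative chosen after seeing the data, as were counts per kilobase of the locus) and 0.50 without the entry with the highest FPKM. For liver against salivary glands (1.37) the upper quartile gave 1.30, the total without the 10 genes 1.03, library size 1.16 and the set without the highest entry 1.46. For small intestine against salivary glands (0.76) they gave 0.87, 0.87, 0.44 and 0.96, and TMM gave 0.90.

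The number of entries at least 2-fold higher in liver than in small intestine, 2, was 0 with the total without the 10 genes and 4 at 1.5-fold. The number lower, 1, was 2 with TMM, with the upper quartile, with that total and at 1.5-fold. Of the 92 entries for nuclear subunits, the 11 higher in liver than in salivary glands were 7 with TMM and 6 with the upper quartile. The 5 lower were 8 with the upper quartile and 3 with a pseudocount of 1. Of small intestine against salivary glands, the 6 higher were 2 and the 3 lower were 1 with that pseudocount. Of the 49 genes for mitochondrial DNA and RNA, 18 were higher in liver than in salivary glands, 12 with TMM and 11 with the upper quartile. The share over all genes, 25.9%, is by FPKM and was not computed for these scalings. The 3 lower were 1 with a pseudocount of 1. The 2 lower in liver than in small intestine were 1 with at least 10 counts and with a pseudocount of 1. The 4 higher in small intestine than in salivary glands were 2 with TMM and the upper quartile.

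The mitochondrial share of the FPKM, 6.11% in small intestine, 4.32% in salivary glands and 10.7% in liver, was 2.05%, 1.32% and 3.06% of the counts, and 11.0%, 7.03% and 13.9% of the FPKM without the 10 most abundant other genes. The ratio of complex IV to complex I in the same order, 4.75, 4.88 and 7.66, was 7.92, 14.4 and 10.4 with medians, 7.41, 18.3 and 12.2 without entries under 400 bases, 7.60, 9.21 and 11.6 by counts per kilobase of deposited length, and 7.69, 9.28 and 11.8 by counts per kilobase of the locus. The ratio of complex III to complex I, 0.773, 0.471 and 0.915, turned to 1.29, 1.39 and 1.24 with medians and 1.21, 1.76 and 1.45 without entries under 400 bases. By counts per kilobase it was 1.17, 0.874 and 1.40 with deposited length and 1.18, 0.881 and 1.42 with the locus. Neighbouring pairs past 2-fold in all libraries fell from 4 to 2 by counts per kilobase of the locus, where the log2 ratio of the ATP8, ATP6 and COX3 entry to COX2 turned from 1.21, 1.20 and 0.68 to -0.94, -0.90 and -1.17 in small intestine, salivary glands and liver. That of ND5 to the ND4L and ND4 entry turned from -0.25 to 1.58 in small intestine and from -0.90 to 0.80 in salivary glands.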
